A study of Mus musculus with 6 samples.

Results

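The lipogenic enzymes and regulators were 10 genes that build fatty acids in the liver or control that process: Acly, Acaca, Fasn, Me1, Elovl6, Scd1, Fads1, Fads2, Srebf1 and Thrsp. Their members were taken by gene symbol, which gave 10 of the 16887 genes named on the arrays and 12 of the 20865 probes used, with 2 probes each for Acaca and Me1. Liver RNA of 6 C57BL/6 mice, 7 weeks old, was measured on 2-colour arrays, 1 mouse per array. All 6 mice ate the HFC (high-fat cholesterol) diet, named a high fat diet in the sample titles, for 12 days. The 3 groups of 2 mice were HFC with no drug, HFC with lovastatin at 30 mg/kg and HFC with fenofibrate at 100 mg/kg, with drugs given by mouth once daily from day 5. The study describes 24 mice in arms of 6, with vehicle for the HFC arm; mice beyond these 6 and the pool were not analysed here. Each array compared its mouse with the same pooled liver RNA of 6 chow-fed C57BL/6 mice. Lovastatin blocks HMG-CoA reductase in cholesterol synthesis, and fenofibrate activates the nuclear receptor PPARalpha. For the lovastatin samples the titles and source names were followed, although the treatment description attached to them names fenofibrate.

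De novo lipogenesis turns citrate from the mitochondrion into fatty acids in the cytosol. ATP citrate lyase releases acetyl-CoA, acetyl-CoA carboxylase makes malonyl-CoA, and fatty acid synthase joins these units with NADPH, part of which malic enzyme supplies. Elongases and desaturases then lengthen the products and add double bonds. In liver the pathway is known to be driven by insulin and carbohydrate through SREBP-1c, ChREBP and LXR, and to be held back by dietary polyunsaturated fat.

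The windows of 250 bases before the annotated start are shown for Fasn, Thrsp and Acly, because their probes had the 3 lowest dye-balanced ratios of the 12 with displaced spots left out. They come from RefSeq on build GRCm38.p6, where the Fasn window is chr11:120824548-120824797, the Thrsp window chr7:97417551-97417800 and the Acly window chr11:100528001-100528250, all on the minus strand and printed 5′ to 3′. Of the 10 genes, 8 had a window in that table, and Scd1 and Fads1 did not. Capitals mark the CCAAT box (CCAAT on either strand, so also ATTGG) and the GC box (GGGCGG on either strand, so also CCGCCC).
Fasn: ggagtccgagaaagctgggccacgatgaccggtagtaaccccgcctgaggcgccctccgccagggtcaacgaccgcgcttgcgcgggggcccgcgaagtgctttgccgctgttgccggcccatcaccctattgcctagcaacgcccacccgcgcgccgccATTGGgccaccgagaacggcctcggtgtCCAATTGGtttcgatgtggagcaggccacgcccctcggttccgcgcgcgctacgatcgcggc
Thrsp: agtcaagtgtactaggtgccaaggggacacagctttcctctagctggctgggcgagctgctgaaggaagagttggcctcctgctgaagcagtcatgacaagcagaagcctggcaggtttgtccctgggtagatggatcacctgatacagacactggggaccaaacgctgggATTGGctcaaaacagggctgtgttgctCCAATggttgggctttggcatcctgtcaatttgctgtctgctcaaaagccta
Acly: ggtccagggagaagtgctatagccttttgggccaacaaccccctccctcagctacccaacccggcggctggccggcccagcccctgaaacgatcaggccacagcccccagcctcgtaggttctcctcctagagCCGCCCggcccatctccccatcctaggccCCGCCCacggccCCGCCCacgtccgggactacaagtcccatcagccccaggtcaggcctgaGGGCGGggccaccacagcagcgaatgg
The Fasn window held 3 CCAAT boxes, of which the last 2 overlap on opposite strands, the Thrsp window held 2, and the Acly window held 4 GC boxes and 0 CCAAT boxes. A CCAAT box occurred in 33.8% and a GC box in 32.7% of all 32851 windows of this length, so neither is rare. The E-box CACGTG (6.02% of windows) and the sterol regulatory element TCACNCCAC (1.05%), each searched on both strands, had 0 matches among the 11 windows of the 8 genes. The direct repeats known as DR4 (0.0152%) and DR1 (0.0335%), searched as exact consensus letters on both strands, also had 0 matches there. All of these are matches to exact letters, so an element that departs from the letters is not counted. Nothing about binding was measured.

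Values are ratios on a log scale, read as log2 of mouse over pool, so that 0 is the level of the chow pool. The direction is likely rather than stated. It rests on the mouse being the first channel on every array. The dye of the mouse was Cy5 for HFC and lovastatin and Cy3 for fenofibrate, so a dye effect and fenofibrate cannot be told apart for any gene. The arrays were uneven: the SD over all probes ran from 0.419 (HFC replicate 1) to 1.10 (lovastatin replicate 1). On HFC replicate 2, 4 of 8 column blocks hold values displaced along the array rows, which covers 10470 probes (50.2%). There the correlation with the other arrays was between -0.0382 and 0.0298, and it was between 0.311 and 0.332 after rotating each block. The single probes of Fasn and Srebf1 and 1 of the 2 Acaca probes lie in these blocks. Their HFC replicate 2 values were left out of the tests, so for them HFC is 1 array, whose spread is borrowed from the other groups. The rotated value is quoted where it helps. With displaced spots left out, lovastatin replicate 1 correlated at 0.186 with its own replicate and at 0.0523 to 0.183 with the other arrays. The HFC arrays correlated at 0.24 and the fenofibrate arrays at 0.39, while HFC replicate 1 with lovastatin replicate 2 gave 0.497. With 1 mouse per array, a difference between mice and one between arrays cannot be told apart. In whole liver, fewer cells of a type and less RNA per cell cannot be told apart.

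**Figure D1:**
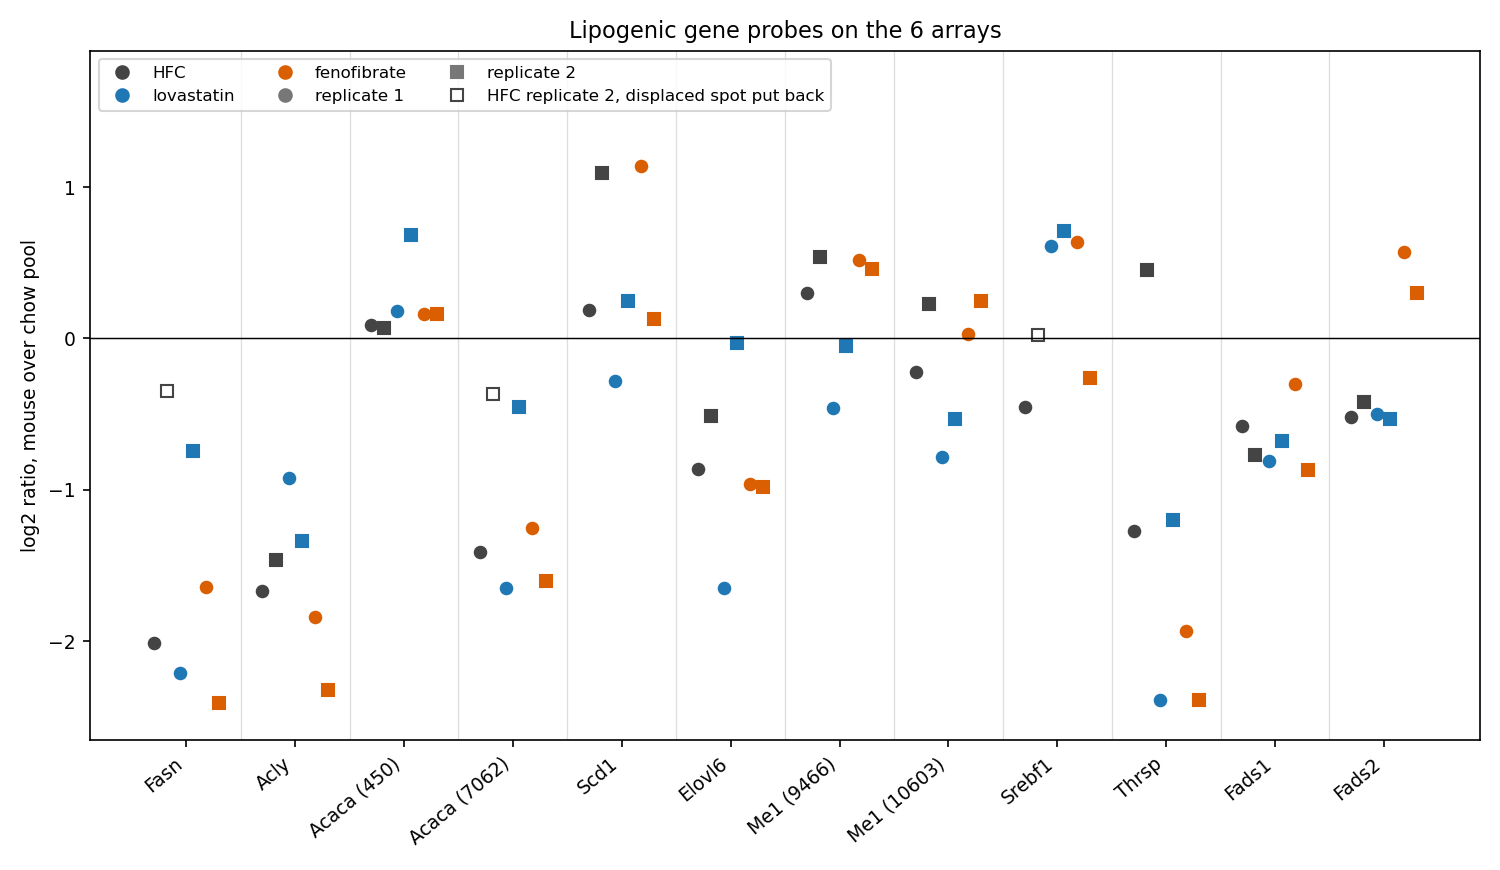
Log2 ratio of mouse over chow pool (vertical axis) for the 12 probes (horizontal axis), 1 point per array; colour gives the group, circles replicate 1 and squares replicate 2, and hollow squares the displaced HFC replicate 2 spots put back by rotation. Acly lies between -2.32 and -0.92 on all 6 arrays, while Thrsp is at 0.45 on HFC replicate 2 and below -1 on the others.

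Acly, ATP citrate lyase, which makes the cytosolic acetyl-CoA for lipogenesis, was below 0 on every array. Its log2 ratio was -1.67 and -1.46 in the HFC mice, -0.92 and -1.34 in the lovastatin mice and -1.84 and -2.32 in the fenofibrate mice. The groups did not overlap, with lovastatin the least low and fenofibrate the lowest. Pair by pair this was common over all probes. It held for 13% with lovastatin above HFC, 20.4% with fenofibrate below HFC and 20.3% with fenofibrate below lovastatin. The value of -0.92 is from lovastatin replicate 1, the widest array, and fenofibrate has the opposite dye orientation. Over both dye orientations, with HFC and lovastatin weighted 0.25 each and fenofibrate 0.5, Acly fell by 1.71 (SE 0.134, 95% interval -2.05 to -1.38, limma adjusted p = 0.0238). It was the single member probe of 12 to pass at an adjusted p of 0.05, where 0.327% of all 20781 probes passed lower. Across 19 other settings its ratio stayed between -1.85 and -1.59, but it passed in 13 of them. Among those where it did not, without HFC replicate 1 or 2 the limma adjusted p was 0.113 or 0.0872, without fenofibrate replicate 1 or 2 it was 0.408 or 0.528, and with the arrays scaled to a common spread it was 0.0551.

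Acaca, acetyl-CoA carboxylase alpha, which makes malonyl-CoA, gave opposite signs on its 2 probes, both annotated to the same transcript. Probe 7062 read -1.41 on HFC replicate 1, -1.65 and -0.45 in the lovastatin mice and -1.25 and -1.60 in the fenofibrate mice. On HFC replicate 2 its displaced spot held 0.54 as deposited and -0.37 after rotation. The dye-balanced ratio was -1.33 (SE 0.232, limma adjusted p = 0.169), which did not pass. Probe 450, in an undisplaced block, read 0.09 and 0.07 in HFC, 0.18 and 0.68 in lovastatin and 0.16 and 0.16 in fenofibrate mice. Its dye-balanced ratio was 0.21 (95% interval -0.10 to 0.51). The intervals of the 2 probes do not overlap, so a mean over them (-0.47, SE 0.180) describes neither, and which probe reports the gene was not tested.

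Fasn, fatty acid synthase, which assembles palmitate, had the lowest dye-balanced ratio of the 12 probes with its displaced spot left out. Acly was lower with the blocks put back (-1.71 against -1.68), with the values as deposited (-1.71 against -1.65) and without lovastatin replicate 1 (-1.77 against -1.70). Fasn read -2.01 on HFC replicate 1, -2.21 and -0.74 with lovastatin and -1.64 and -2.41 with fenofibrate. Every measured array was below 0, but the lovastatin arrays differed from each other by more than the fenofibrate arrays did. The dye-balanced ratio was -1.88 (SE 0.289, 95% interval -2.66 to -1.11, limma adjusted p = 0.134), which did not pass. Its HFC replicate 2 spot held -0.15 as deposited and -0.35 after rotation, far from replicate 1, and with the rotated value the ratio was -1.68 (limma adjusted p = 0.114). The adjusted p was under 0.05 in 4 of 17 other settings, among them leaving out lovastatin replicate 1 (0.0498) or replicate 2 (0.0300).

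Me1, cytosolic malic enzyme and a source of NADPH, gave values on both sides of 0. Probe 9466 read 0.30 and 0.54 in HFC, -0.46 and -0.05 in lovastatin and 0.52 and 0.46 in fenofibrate mice. Probe 10603 read -0.22 and 0.23, -0.78 and -0.53, and 0.03 and 0.25 in the same order. On both probes the lovastatin arrays lay below those of the other groups. Pair by pair, 18.1% of all probes had lovastatin below HFC without overlap, and 20.1% had fenofibrate above lovastatin. The dye-balanced ratios were 0.29 (95% interval -0.01 to 0.59) and -0.09 (95% interval -0.41 to 0.22), and neither passed.

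Elovl6, which elongates palmitate to stearate, was below 0 on all 6 arrays but varied widely. It read -0.86 and -0.51 in HFC, -1.65 and -0.03 in lovastatin and -0.96 and -0.98 in fenofibrate mice. The 2 lovastatin arrays spanned the range of all 6. The dye-balanced ratio was -0.87 (SE 0.241, limma adjusted p = 0.300), which did not pass.

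Scd1, stearoyl-CoA desaturase, which makes monounsaturated fatty acids, was not low on its 1 probe, whose intensity was not checked. It read 0.19 and 1.09 in HFC, -0.28 and 0.25 in lovastatin and 1.14 and 0.13 in fenofibrate mice. In the HFC and in the fenofibrate group 1 array was above 1 and the other near 0, and the groups overlap. The dye-balanced ratio was 0.47 (95% interval -0.07 to 1.02, limma adjusted p = 0.526). The interval of this probe lies above the ratio of Acly, but it leaves out the spread between chow mice. Whether the probe reports the gene was not tested.

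Fads1 and Fads2, the delta-5 and delta-6 desaturases of polyunsaturated fatty acid synthesis, had opposite signs on the fenofibrate arrays. Fads1 read -0.58 and -0.77 in HFC, -0.81 and -0.68 in lovastatin and -0.30 and -0.87 in fenofibrate mice. It was below 0 on all 6 arrays, and its dye-balanced ratio of -0.65 (SE 0.129, limma adjusted p = 0.165) did not pass. Fads2 read -0.52 and -0.42 in HFC, -0.50 and -0.53 in lovastatin, and 0.57 and 0.30 in fenofibrate mice. The 4 arrays without fenofibrate lay between -0.53 and -0.42, and the 2 with it were above 0. Its dye-balanced ratio of -0.03 (95% interval -0.30 to 0.24) averages these opposite signs.

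Srebf1, which encodes SREBP-1, the transcription factor of lipogenic genes, lay on both sides of 0, and below 0 on the 1 HFC array measured for it. It read -0.45 on HFC replicate 1, 0.61 and 0.71 with lovastatin and 0.64 and -0.26 with fenofibrate. Both lovastatin mice were above 0 and the fenofibrate mice lay on both sides. The displaced HFC replicate 2 spot held -0.15 as deposited and 0.02 after rotation. The dye-balanced ratio was 0.15 (95% interval -0.36 to 0.65, limma adjusted p = 0.825). The annotation does not separate the SREBP-1a and SREBP-1c transcripts.

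Thrsp, Spot 14, a thyroid hormone responsive regulator of lipogenesis, was low on 5 of 6 arrays. It read -1.27 and 0.45 in HFC, -2.39 and -1.20 in lovastatin and -1.93 and -2.39 in fenofibrate mice. HFC replicate 2 was the exception, and this spot lies outside the displaced blocks. The dye-balanced ratio was -1.63 (SE 0.301, limma adjusted p = 0.141), which did not pass. The HFC mean was -0.41 ± 1.22 (SD, n = 2), and the sign of that group depends on the array: 0.45 without HFC replicate 1 and -1.27 without replicate 2.

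**Figure D2:**
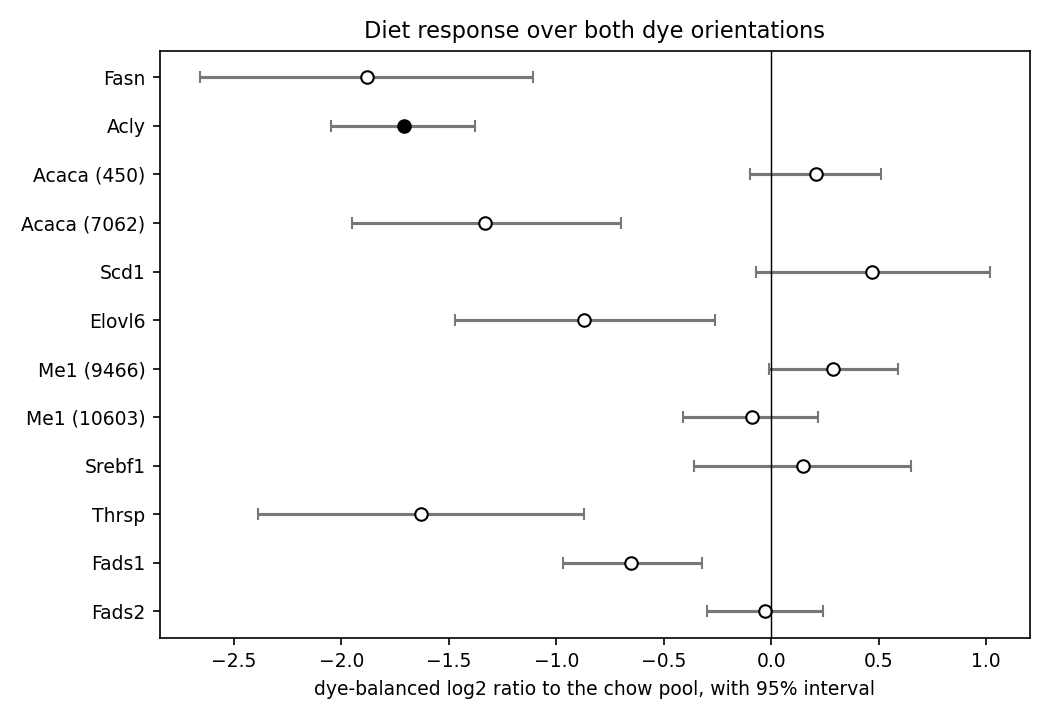
Dye-balanced log2 ratio to the chow pool (horizontal axis) with its 95% interval for each of the 12 probes; the filled point passed at a limma adjusted p of 0.05. Acly alone is filled at -1.71, and Fasn, without its displaced spot, is at -1.88 with an interval from -2.66 to -1.11.

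Taken over the 12 probes, 6 had an unadjusted p under 0.05 on the lower side in the dye-balanced comparison (Fasn, Acly, Thrsp, Acaca probe 7062, Elovl6 and Fads1), where 5.49% of all probes did, and 0 on the higher side (5.11%). Without lovastatin replicate 2, 5 member probes passed (Fasn, Acly, Acaca probe 7062, Elovl6 and Thrsp), among 760 of all probes, and without lovastatin replicate 1, Fasn and Acly did, among 200. Without HFC replicate 1 or 2, or fenofibrate replicate 1 or 2, 0 members passed, among 2, 7, 0 and 0 of all probes. Without HFC replicate 1 the 3 displaced member probes have no HFC value and were not fitted. In the main fit the median ratio of the 12 was -0.37, against 0.00875 over all probes. Of the 9 probes measured on all 6 arrays, Acly, Elovl6 and Fads1 were below 0 on each, as were 5.81% of such probes, and Acaca probe 450 was above 0 on each (5.97%). Fasn and Acaca probe 7062 were below 0 on all 5 measured arrays, as were 8.27% of such probes, and 0 of the 3 displaced member probes were above 0 on all 5 (8.42%). With the rotated values both were also below 0 on all 6 arrays (5.71% of probes).

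Against the pool, each group taken alone had 0 member probes past the limma threshold, and 0% of all probes passed. For HFC, 5 of 12 member probes had an unadjusted p under 0.05 on the lower side (2.31% of all probes) and 0 on the higher side (2.26%), with Acly at -1.56 (limma adjusted p = 0.349). For lovastatin it was 7 of 12 lower (5.74%) and 0 higher (4.58%), with Acly at -1.13 (limma adjusted p = 0.409) and Thrsp at -1.79 (limma adjusted p = 0.443). Without lovastatin replicate 2, Fasn, Acaca probe 7062, Elovl6 and Thrsp passed, among 3931 of all probes, and the lone mouse left was then assumed to vary like the others. For fenofibrate it was 5 of 12 lower (3.74%), with Acly at -2.08 (limma adjusted p = 0.121) and Thrsp at -2.16 (limma adjusted p = 0.374), and 1 probe, Me1 9466, on the higher side (3.81%). These 3 comparisons and the dye-balanced one share the pool, and a ratio against 0 leaves out the spread between chow mice. The dye-balanced call of Acly and the calls in the gene lists below carry the same limit.

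**Figure D3:**
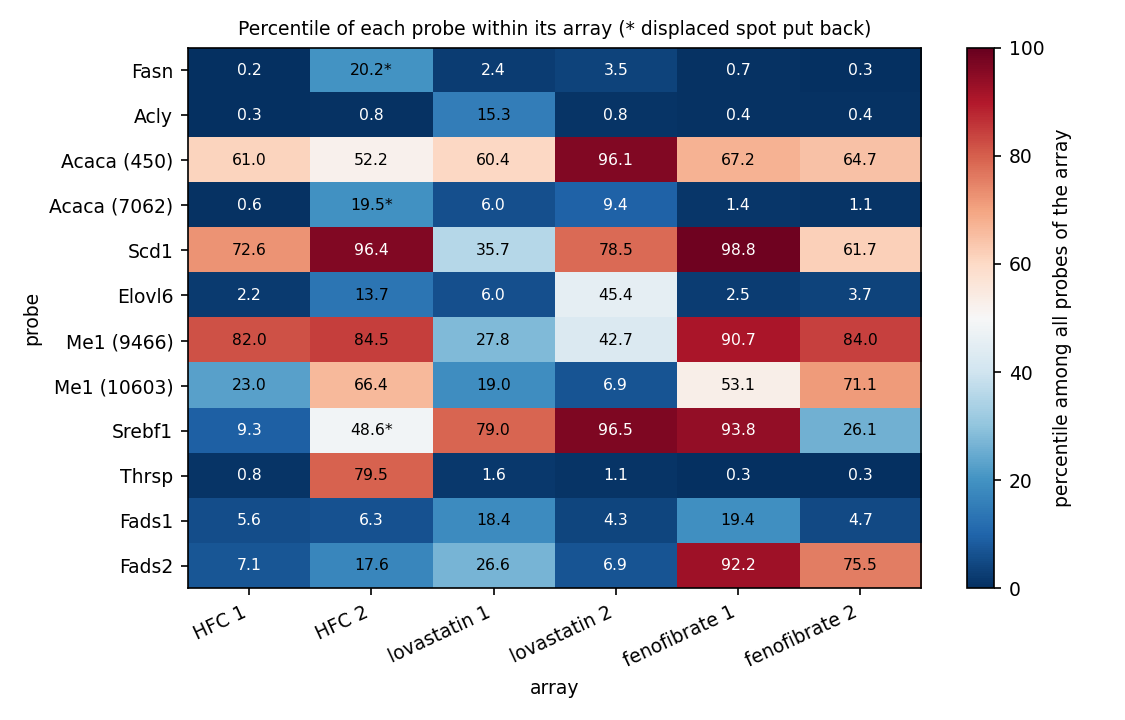
Percentile of each of the 12 probes (rows) among all probes of the same array (columns), from 0 (blue, lowest) to 100 (red, highest); a star marks a displaced spot put back by rotation. Thrsp stands at 79.5 on HFC replicate 2 and at 1.63 or below on the other 5 arrays, and Fasn at 20.2 on HFC replicate 2 and at 3.54 or below elsewhere.

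Percentiles within each array set the wide arrays beside the narrow ones. Fasn stood at 0.20 on HFC replicate 1 and at 20.2 on HFC replicate 2 after rotation, and Thrsp at 0.81 and 79.5. Acly stood at 0.32 and 0.77 on the same 2 arrays, and at 0.80 or below on the other arrays except lovastatin replicate 1, the widest, where it stood at 15.4. The 2 HFC arrays thus lay close for Acly and not for Fasn or Thrsp. Over all probes with undisplaced spots these arrays correlated at 0.24, and mouse and array cannot be told apart. Acss2, acetyl-CoA synthetase, behaved like Acly, at -2.21 on replicate 1 and -2.96 on replicate 2 after rotation. Acacb, the mitochondrial carboxylase, behaved like Fasn, at -2.46 and -0.02.

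The drug comparisons asked whether lovastatin or fenofibrate moved these genes beyond the diet. For lovastatin against HFC, 0 of 12 member probes passed and 0% of all probes did (limma), with 0 member probes at an unadjusted p under 0.05 on the higher side (0.558% of all probes) or the lower side (1.35%). Of the 9 members measured on all 4 arrays, Acly and Acaca probe 450 were higher without overlap (13% of all probes were) and both Me1 probes lower (18.1%). The Me1 differences were -0.67 (95% interval -1.37 to 0.02) and -0.66 (95% interval -1.39 to 0.07). Me1 probe 9466 was above 0 in both HFC mice and below 0 in both lovastatin mice, a split that 8.33% of all probes showed. For Fasn the difference was 0.54 with an interval from -1.50 to 2.57, too wide to show a change in either direction.

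For fenofibrate against HFC, 0 of 12 member probes passed (0% of all probes, limma), and 1, Fads2, had an unadjusted p under 0.05 on the higher side (1.38%), with 0 on the lower side (1.39%). Fads2 was 0.90 higher (SE 0.248, 95% interval 0.28 to 1.53, limma adjusted p = 1), with both fenofibrate arrays above both HFC arrays. Acaca probe 450 was also higher without overlap (19.5% of all probes were), and Acly, Elovl6 and Thrsp were lower without overlap (20.4%). The Acly difference was -0.51 (95% interval -1.29 to 0.26). Dye orientation differs between these 2 groups, so the dye and the drug cannot be told apart.

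For fenofibrate against lovastatin, 0 of 12 passed (0% of all probes, limma), while 3 had an unadjusted p under 0.05 on the higher side (3.44% of all probes) and 1 on the lower side (2.04%). Fads2 differed by 0.95 (95% interval 0.33 to 1.57) and the Me1 probes by 0.74 and 0.79, with limma adjusted p = 0.700 for each. Acly differed by -0.95 (95% interval -1.73 to -0.17, limma adjusted p = 0.700). Without overlap, 3 of 12 probes were higher (20.1% of all probes were) and 2 lower (20.3%). The 3 drug comparisons share groups, so they are not separate evidence.

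**Figure D4:**
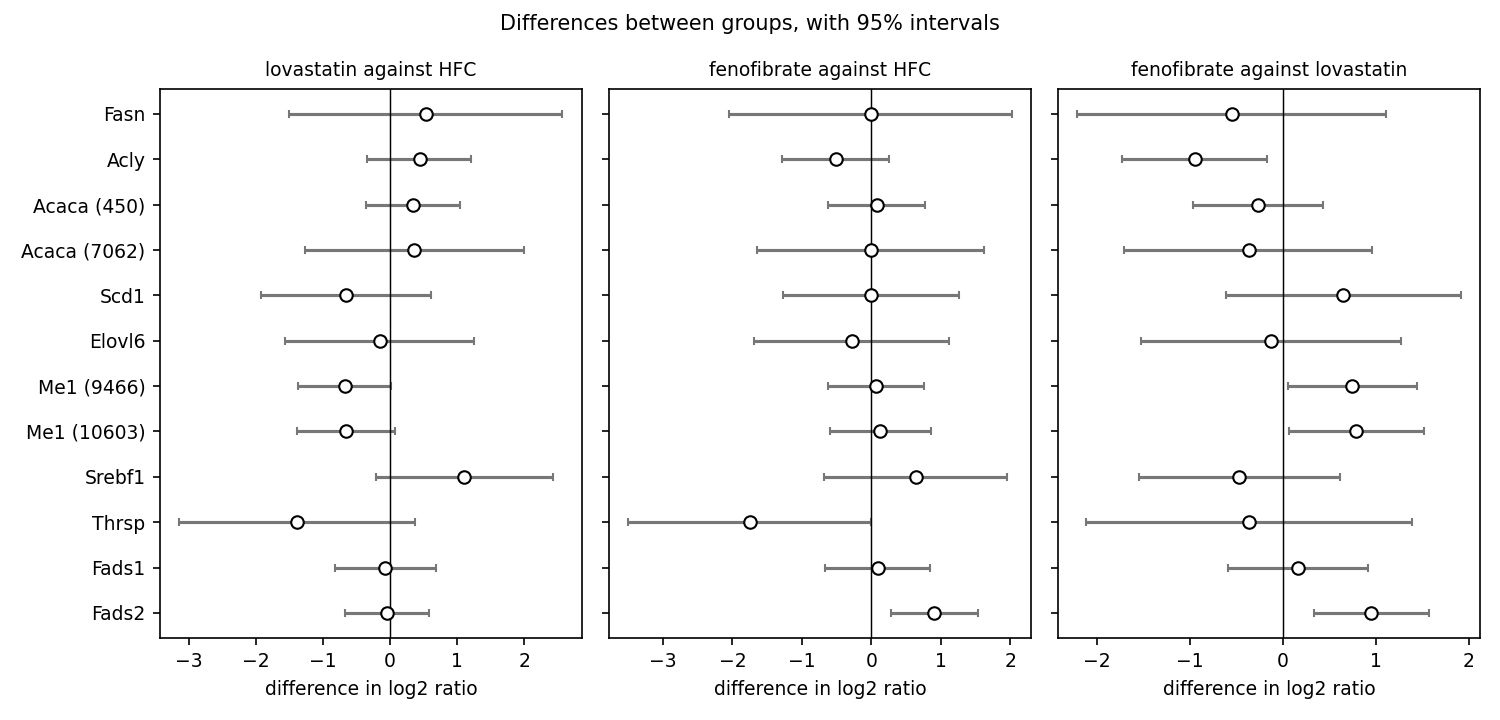
Difference in log2 ratio between groups (horizontal axis) with 95% intervals for the 12 probes, 1 panel per comparison; none passed at a limma adjusted p of 0.05. Fads2 lies at 0.90 and 0.95 in both fenofibrate panels, and Fasn has among the widest intervals, from -1.50 to 2.57 for lovastatin against HFC.

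The genes whose 5 ratios outside HFC replicate 2 lay nearest to those of 3 members were found by Euclidean distance among 17619 named probes. Nearest to Fasn were Thrsp (distance 0.936) and 2 enzymes of cholesterol synthesis, Nsdhl and Lss (1.03 each). Nearest to Thrsp were Pon1, paraoxonase (0.917), Fasn (0.936) and Slc22a7, an organic anion transporter (0.965). Nearest to Scd1 were Actl9 (0.332), Zfp711 (0.334) and Foxn4 (0.337), whose ratios, like those of Scd1, lay within 0.35 of 0 on 4 arrays and near 1 on fenofibrate replicate 1. Likeness over 5 arrays is a description.

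Genes around the pathway were read from 7 lists in the same dye-balanced comparison, where 0.14% of all probes passed higher and 0.327% lower. Every call in these lists was lost when either fenofibrate array was left out. The calls below of Insig2, Lpl, Abcg5 and Cyp4a10 were also lost without either HFC array. Those of Acss2, Acacb and Cyp4a14 were lost without HFC replicate 2. With the replicate number as a block 0 of all probes passed, and with the arrays scaled to a common spread 2 did. For the supply of acetyl-CoA, malonyl-CoA and NADPH, 2 of 11 probes passed, both lower. Acss2, which makes acetyl-CoA from acetate, fell by 2.43 (SE 0.128, limma adjusted p = 0.0228) and Acacb fell by 2.18 (SE 0.183, limma adjusted p = 0.0435). With the blocks put back Acacb was at -1.87 and no longer passed (limma adjusted p = 0.109), while Acss2 did (0.00491). Slc25a1, the mitochondrial citrate carrier, was at -0.52 and Idh1, a source of NADPH, at -0.43, and neither passed. The list median was -0.35.

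For elongation and desaturation, 0 of 13 probes passed (limma) and 3 had an unadjusted p under 0.05, all lower (5.49% of all probes), with a median of -0.07. Tecr, the last enzyme of the elongation cycle, was at -0.57 and Cyb5r3, which feeds electrons to the desaturases, at -0.56. For triglyceride and phospholipid esterification, 0 of 12 probes passed (limma), while 3 had an unadjusted p under 0.05 on the higher side (5.11% of all probes) and 1 on the lower side (5.49%), with a median of -0.05. Agpat3, with the smallest p of the list, was at 0.72 (limma adjusted p = 0.081) and read between 0.38 and 0.88 on every array. Lpin1 was at -0.73 (limma adjusted p = 0.189). Mogat1, a monoacylglycerol acyltransferase, read 2.34 and 2.40 with fenofibrate and between -0.66 and -0.22 on the other 3 measured arrays. Its displaced HFC replicate 2 spot was at 0.47 after rotation.

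Among lipogenic transcription factors and their partners, 1 of 18 probes passed. Insig2, which holds the SREBP escort protein in the endoplasmic reticulum, rose by 1.32 (SE 0.111, limma adjusted p = 0.0250). Insig1, which does the same and is itself an SREBP target, was at -1.86 (SE 0.290, limma adjusted p = 0.100), and Srebf2, the sterol-regulating SREBP gene, at -0.90 (limma adjusted p = 0.141). Neither passed, and the list median was 0.00.

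Cholesterol synthesis, the other branch that SREBP proteins control, had 13 of 18 probes lower past the limma threshold and a median of -2.16, against -0.37 for the lipogenic probes. Its lowest member was Idi1 at -4.57 (SE 0.176), and Sqle stood at -3.81 (SE 0.134). LXR targets outside lipogenesis had 2 of 8 probes higher past the limma threshold. These were Lpl, lipoprotein lipase, at 1.86 (limma adjusted p = 0.0228) and Abcg5, a sterol exporter, at 1.30 (limma adjusted p = 0.0397). The list median was 0.64. Of the 8, 3 were below 0, the lowest Pltp at -0.80 (limma adjusted p = 0.187), which did not pass. PPARalpha targets outside lipogenesis had 3 of 11 higher, Acot1 at 2.89, Cyp4a14 at 2.23 and Cyp4a10 at 1.29, with a median of 1.05. Fenofibrate, a PPARalpha agonist, has a weight of 0.5 in this comparison, and the list median against the pool was 0.52 in HFC, 0.34 in lovastatin and 1.77 in fenofibrate mice. Cyp4a10 read 0.49 and 0.55 in HFC, 1.01 and 0.58 in lovastatin and 2.15 and 1.70 in fenofibrate mice.

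**Figure D5:**
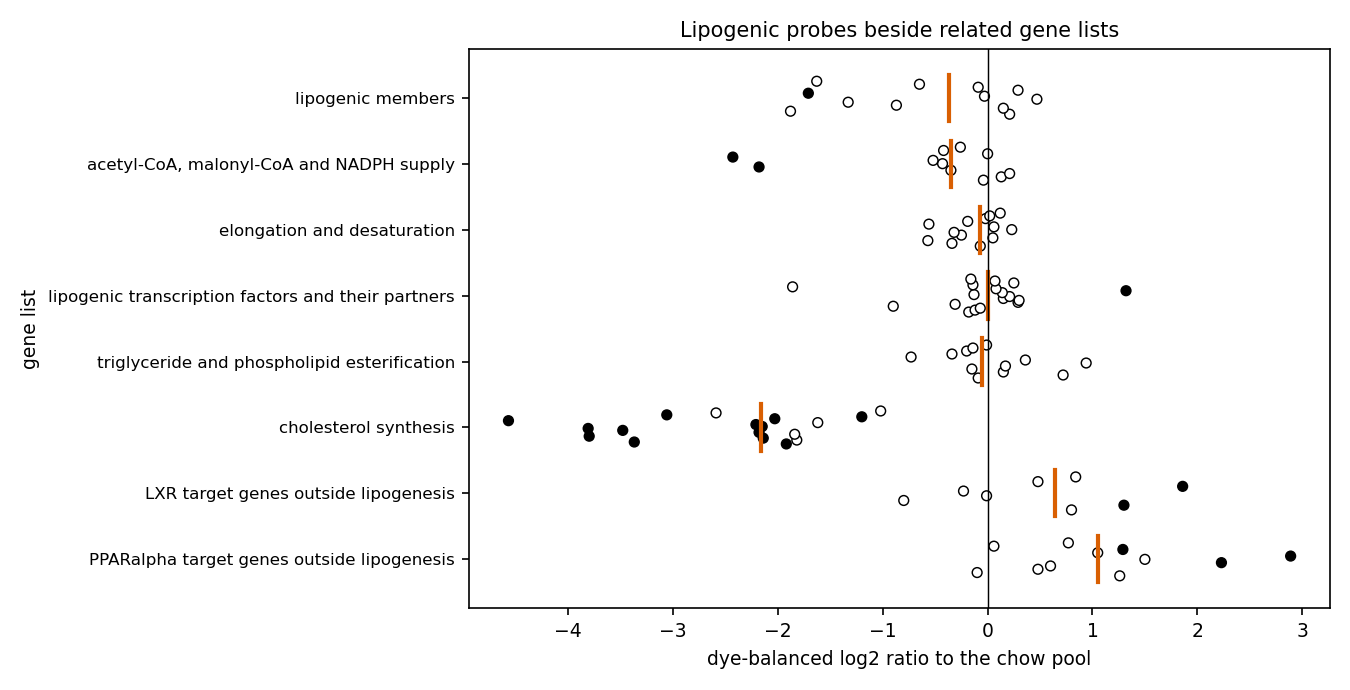
Dye-balanced log2 ratio to the chow pool (horizontal axis) for each probe of the lipogenic genes and of 7 related lists (vertical axis); filled points passed at a limma adjusted p of 0.05 and orange bars are list medians. The lipogenic median is -0.37 and that of cholesterol synthesis -2.16, with 13 of 18 probes filled.

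Markers of the cell types a liver sample can hold moved in part with these results. Ratios carry no level, so the labelled tissue could not be checked by the presence of hepatocyte markers. Of 11 hepatocyte probes, 0 passed (limma) and 6 had an unadjusted p under 0.05 on the lower side (5.49% of all probes), with a median of -0.41. Ttr, transthyretin, was at -0.98 (limma adjusted p = 0.0916) and Alb, albumin, at -0.72 (limma adjusted p = 0.267). The 4 probes above 0 were all of Apob, apolipoprotein B, at 0.09 to 0.28, and for lovastatin against the pool 2 of them, at 0.84 and 0.76, had an unadjusted p under 0.05 (0.0364 and 0.0171, limma adjusted p = 0.443 for each). List medians by array ran from -0.48 to -0.07 for hepatocyte markers. The part of this shift in the lipogenic ratios was not tested. Of 8 adipocyte probes, 1 had an unadjusted p under 0.05, Car3 at -1.31 (lower, 5.49% of all probes), which liver also expresses, and the list median was -0.08. Kupffer cell and macrophage probes had a dye-balanced median of -0.24, with medians of 0.10 and 0.13 on the lovastatin arrays and -0.34 and -0.65 on the fenofibrate arrays, and their part in the drug comparisons was not tested either. The dye-balanced medians were 0.02 for cholangiocyte and for endothelial probes, -0.02 for stellate cell and fibroblast probes and -0.20 for lymphocyte probes, with 0 passing in each list (limma). At an unadjusted p under 0.05 there were 0, 0, 1 and 1 probes in these lists, both lower (5.49% of all probes).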

How the data were processed

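Per the labels, each array was labelled from 0.5 µg of total RNA. The authors deposited 1 value per spot and array, read here as a log2 ratio, and how background and normalization were handled, and the log base, is not given in the sources used here. Base 2 was taken by convention: a control value of -9.71 exceeds the log10 range of 16-bit signals (4.82). With the mouse in Cy5 that control ran from -9.71 to -4.20, and with the mouse in Cy3 it was 4.83 or 4.95. Intensities and probe sequences were not used, dim probes could not be filtered, and the number of arrays limits precision. Half-widths of the 95% interval had a median of 0.420 in the dye-balanced comparison and 1.05 for either drug against HFC.

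Of 22575 spots, 726 without values and 561 control spots were left out. Merging 47 named probes printed 10 times each, a step chosen after a first fit had been seen, left 20865 probes, of which 18235 had 1 gene symbol from the platform annotation. Displaced spots of HFC replicate 2 were set to missing, since they hold other probes' values. Group means were fitted by limma 3.58.1 in R 4.3.3, 1 row per probe, with the spread pooled over all 3 groups. Residual degrees of freedom were 3 for probes with 6 arrays and 2 for those with 5, with a prior of 2.35. Tests were two-sided, with Benjamini-Hochberg adjustment over all probes. The labels give each replicate its own mouse.

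The members, lists, tests and main settings were chosen with earlier results of these data known, and the 6 motifs after the promoter windows had been seen. Named genes are all members, up to 4 genes of smallest p per list with any gene past the threshold, and the 3 nearest genes of Fasn, Scd1 and Thrsp; not all are printed. Other settings were 18 planned and 2 added after seeing the data: the blocks put back with lovastatin replicate 1 left out, and repeated spots kept. Deviations of same-numbered arrays from their group means had correlations of -0.0216 to 0.0402 over 9982 probes. With 2 uneven arrays per group these cannot show whether the numbers mark a batch or a pair. Data were prepared with Python 3.11.15, pandas 2.3.3 and numpy 2.4.6, and figures drawn with matplotlib 3.10.9.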

Additional observations from a re-analysis of the deposited data

Results flagged for a closer look

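A set of 5 differences between groups was singled out because both arrays of 1 group lay above 0 and both of the other below 0. Me1 probe 9466 did so for lovastatin against HFC (difference -0.67, limma adjusted p = 0.978) and for fenofibrate against lovastatin (0.74, limma adjusted p = 0.700). Me1 probe 10603 did so for fenofibrate against lovastatin (0.79, limma adjusted p = 0.700). Fads2 did so for fenofibrate against HFC (0.90, limma adjusted p = 1) and against lovastatin (0.95, limma adjusted p = 0.700). None passed, and such a split was common: it occurred for 8.33%, 12.8% and 13.8% of all probes in lovastatin against HFC, fenofibrate against HFC and fenofibrate against lovastatin. The fenofibrate arrays also have the opposite dye orientation, which cannot be told apart from the drug.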

How the results depend on the processing

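Limits come first. Each group has 2 mice, the spread is shared over unlike arrays, and counts past the threshold moved widely between settings, so which members pass rests on the setting more than their ratios do. In the dye-balanced comparison 97 probes and 1 member probe passed. The counts were 53 with the values as deposited, 183 with the blocks put back, 2 with the arrays scaled (member probes 0), 186 with quantile normalization (members 3: Fasn, Acly and Acaca probe 7062), 205 with array weights, 330 without the noisiest 10% of probes, a filter on the residual itself (members 3: Fasn, Acly and Thrsp), and 232 with the blocks put back and lovastatin replicate 1 left out. With repeated spots kept it was 115. With the replicate number as a block, 0 probes and 0 members passed. Whether the numbers pair these mice could not be shown. Leaving out each array in turn gave 0 to 760 probes and 0 to 5 members, the highest without lovastatin replicate 2, where lovastatin replicate 1, the widest array, stands alone and is assumed to vary like the other groups, and 0 without either fenofibrate array. Acly stayed negative in all 19 other settings; with the block its limma adjusted p was 0.0929. Fitting only the compared groups is the same fit here and was not counted.

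Against the pool, where 0 probes passed, HFC gave 2 with the blocks put back, 8 with quantile normalization, 20 without the noisiest probes and 27 with the blocks put back and lovastatin replicate 1 left out. Lovastatin gave 2 put back, 3 quantile, 40 without the noisiest, 4 among probes with a value on every array, and 0 to 3931 (members 0 to 4) leaving out each array. Fenofibrate gave 30 put back, 8 quantile, 12 averaged per gene, 111 with array weights, 89 without the noisiest, 13 with values on every array, 54 put back without lovastatin replicate 1, and 0 to 19 leaving out each array; Acly was the 1 member passing with array weights, without the noisiest probes, and put back without lovastatin replicate 1. Leaving out each array gave 0 to 1139 for lovastatin against HFC and 0 to 2127 for fenofibrate against lovastatin.

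Signs turned 49 times among member results, 0 of them past the threshold; the cause was not tested. Against HFC, lovastatin turned for Fasn (-0.39 as deposited, -0.29 put back), Acaca probe 7062 (-0.61, -0.16), Elovl6 (0.33 scaled, 0.43 quantile, 0.65 put back without lovastatin replicate 1), Fads1 (0.04, 0.15) and Fads2 (0.04, 0.07). Fenofibrate turned for Fasn (0.52 scaled, 0.47 quantile), Acaca probe 7062 (0.35, 0.33) and Scd1 (0.17, 0.19, and 0.01 centred). Against the pool, HFC turned for Me1 probe 10603 (-0.01 centred, -0.05 scaled, -0.06 quantile) and lovastatin for Scd1 (0.09 scaled, 0.10 quantile, 0.25 put back without lovastatin replicate 1). Leaving out each array gave, against the pool, -0.22 to 0.23 (Me1 probe 10603, HFC), -1.27 to 0.45 (Thrsp, HFC), -0.28 to 0.25 (Scd1, lovastatin) and -0.26 to 0.64 (Srebf1, fenofibrate), and dye-balanced -0.10 to 0.04 (Fads2) and -0.08 to 0.37 (Srebf1). For lovastatin against HFC it gave -0.96 to 0.65 (Elovl6), -0.16 to 0.03 (Fads1), -0.10 to 0.01 (Fads2), -0.20 to 1.27 (Fasn) and -0.24 to 0.96 (Acaca probe 7062). For fenofibrate against HFC it gave -0.51 to 0.50 (Scd1), -0.05 to 0.19 (Me1 probe 9466), -0.09 to 0.36 (Me1 probe 10603), -0.19 to 0.37 (Fads1), -0.40 to 0.37 (Fasn) and -0.19 to 0.16 (Acaca probe 7062). For fenofibrate against lovastatin it gave -1.28 to 0.19 (Fasn), -0.97 to 0.23 (Acaca probe 7062), -0.94 to 0.68 (Elovl6), -0.96 to 0.23 (Thrsp) and -0.12 to 0.44 (Fads1). Without HFC replicate 1 the displaced probes have no HFC value, so HFC comparisons could not be fitted for them.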
